A study of Mus musculus with 58 samples.

Results

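Aminoacyl-tRNA synthetases, the enzymes that join each amino acid to its tRNA, were read as 37 genes of the 52459 gene rows, each taken by its symbol. They were 20 enzymes of the cytosol, 16 enzymes of the mitochondrion, whose symbols end in 2, and Tarsl2, whose symbol also ends in 2 but whose product is a second threonyl-tRNA synthetase known from the cytosol and nucleus, so that it was kept apart. RNA was sequenced after depletion of ribosomal RNA from single retinas of 4-month-old male mice kept in a cycle of 12 h of light and 12 h of dark. The diabetic mice (C57BL/6-Ins2Akita/J) were heterozygous for the Ins2Akita mutation of insulin 2 in every cell, which gives misfolded insulin, loss of beta cells and a lasting hyperglycemia, and the controls (C57/BL/6) were male littermates without it. Retinas were taken at 6 zeitgeber times (ZT, hours after lights on), giving 30 control libraries (5, 6, 5, 5, 5 and 4 at ZT1, ZT5, ZT9, ZT13, ZT17 and ZT21) and 28 diabetic libraries (5, 5, 5, 4, 4 and 5). The labels do not say whether any 2 retinas came from 1 mouse, so p-values measure the spread between these libraries.

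The cytosolic enzymes supply charged tRNAs to the ribosomes that read nuclear messages. Several of them (Dars, Eprs, Iars, Kars, Lars, Mars, Qars and Rars) are bound together in the multi-synthetase complex. The mitochondrial enzymes are encoded in the nucleus, imported, and charge the tRNAs encoded by mitochondrial DNA, which are needed to make the core subunits of the respiratory chain. Gars and Kars each encode both forms from 1 gene, and mitochondria have no glutaminyl-tRNA synthetase of their own, since Ears2 first loads glutamate and an amidotransferase then turns it into glutamine. Photoreceptors are among the most energy-demanding cells of the body and are packed with mitochondria. Transcription of several cytosolic synthetase genes is known to rise through ATF4, a factor that binds C/EBP-ATF response elements (CARE) when amino acids run short.

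Promoters (250 bases before the start) were found in the RefSeq table of GRCm38.p6 for 28 of the 37 genes, 13 of them cytosolic and 14 mitochondrial, and 7 motifs were searched on both strands with no mismatch. CARE (TGATGNAA) was held by 3 of 13 cytosolic promoters (Aars, Gars and Tars) and 0 of 14 mitochondrial ones, beside 3.452% of all 32851 promoters. The motif of NRF1, a factor of nuclear genes for mitochondria (GCGCATGC), was held by 0 of 13 cytosolic and 3 of 14 mitochondrial promoters (Rars2, Vars2 and Wars2), beside 2.256% of all promoters. The 120 bases before the start are shown for 2 promoters with each of these motifs, with the motif, read on either strand, in capitals. They were picked among the promoters that held a match.
Gars, chr6:55037881-55038000, plus strand: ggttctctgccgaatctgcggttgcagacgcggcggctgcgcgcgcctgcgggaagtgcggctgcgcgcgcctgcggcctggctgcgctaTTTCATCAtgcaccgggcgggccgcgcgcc
Tars, chr15:11399659-11399778, minus strand: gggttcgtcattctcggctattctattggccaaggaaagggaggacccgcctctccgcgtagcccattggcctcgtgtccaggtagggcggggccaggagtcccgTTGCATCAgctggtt
Vars2, chr17:35667593-35667712, minus strand: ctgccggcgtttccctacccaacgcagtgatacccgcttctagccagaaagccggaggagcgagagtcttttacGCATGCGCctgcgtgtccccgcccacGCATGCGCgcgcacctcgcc
Wars2, chr3:99140970-99141089, plus strand: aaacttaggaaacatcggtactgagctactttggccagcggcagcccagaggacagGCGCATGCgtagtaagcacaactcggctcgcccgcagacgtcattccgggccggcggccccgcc
The E-box (CACGTG), which clock factors bind, was in 3 cytosolic promoters (Aars, Farsb and Iars) and in 0 mitochondrial ones, beside 6.021% of all promoters, and the D-box (TTATGNAA) was in Vars2 alone, beside 3.068%. The GABPA motif (CCGGAAGT) was in Farsa and Mars, the YY1 motif (AAGATGGC) in Farsa, and the CRE (TGACGTCA) in 0 members, beside 2.877%, 1.565% and 1.546% of all promoters. No match overlapped another, and a match is a run of letters, not a shown binding site.

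Between 7773117 and 22147398 reads were counted per library, with a median of 15406440. All 37 genes passed the filter on low values (a median above 4 normalized counts over all libraries), which left 19120 genes in every test. The retinas carried their own markers, with 499297 to 760875 summed normalized counts for 6 rod genes. Retinal pigment epithelium, the layer under the retina, was present in varying amounts, with 338.0 to 4453 normalized counts summed over 5 marker genes. Lens was also present, since 3 control libraries (ZT1 replicate 6, ZT17 replicate 5 and ZT21 replicate 2) held 27779 to 41941 summed counts for 4 crystallin genes, while the median library held 10.6. In whole retina, a lower count from fewer cells of a type cannot be told apart from less RNA per cell.

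Cytosolic enzymes were expressed above mitochondrial ones. Per length (normalized counts per kb of exon, mean over 58 libraries), the cytosolic genes ranged from 95.3 for Tars to 401 for Nars, with a median of 174, and the mitochondrial genes from 28.3 for Nars2 to 141 for Rars2, with a median of 43.1. The 13 highest of the 37 genes were all cytosolic, and Rars2, an arginyl-tRNA synthetase, stood in place 14. Between neighbours in this order the difference was larger than the larger of both SDs in only 9 of 36 steps, for example from Nars (401 ± 23.2, SD, n = 58) to Gars (367 ± 27.4) and from Gars to Sars (315 ± 24.5). In the other 27 steps it lay within the SD of single libraries, which does not show that the levels are equal: Sars stood above Aars in 57 of 58 libraries, Wars above Mars in 33. Exon lengths are those of Gencode M21, and a gene whose exons are not all used would appear too low on this scale.

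**Figure D1:**
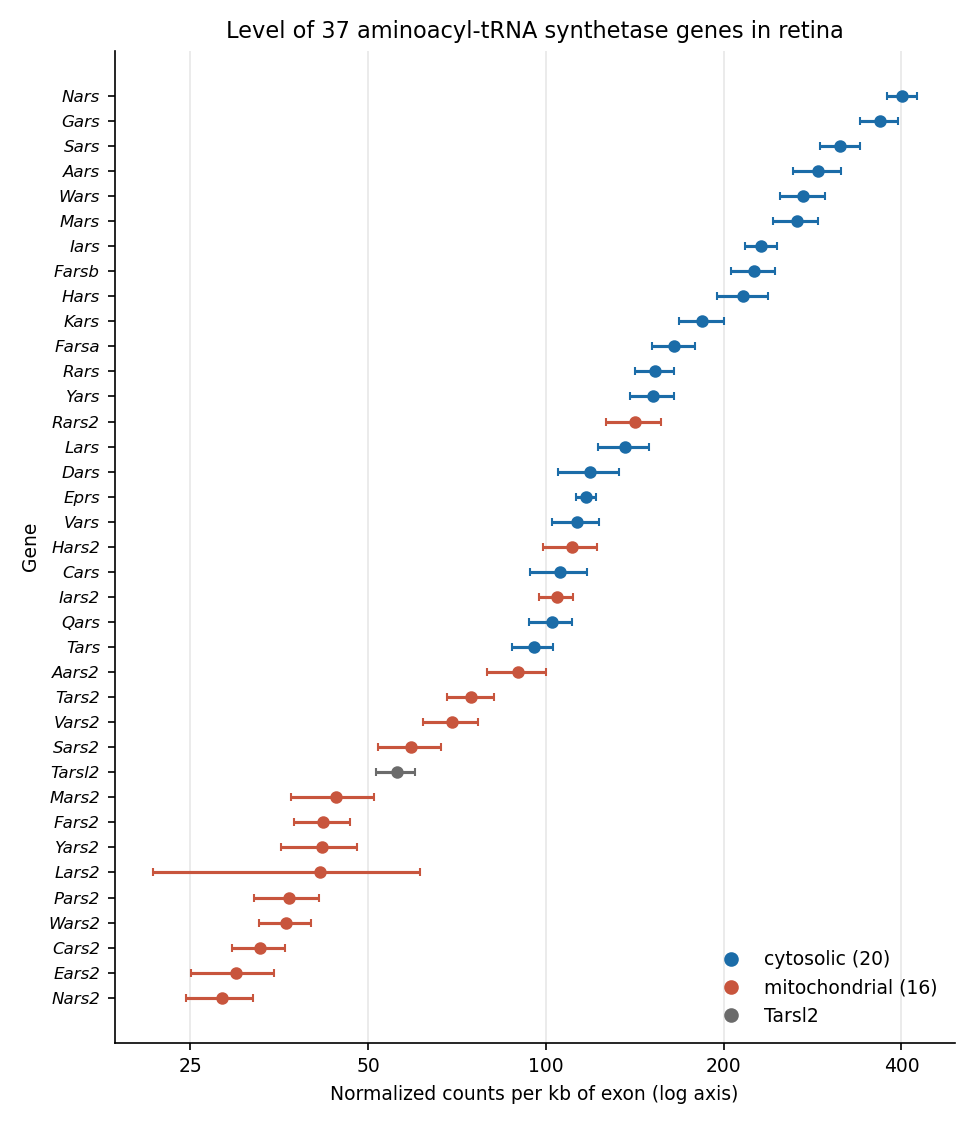
Level of each of the 37 genes in normalized counts per kb of exon on a log axis, with points for the mean over 58 libraries and bars for the SD, blue for cytosolic, red for mitochondrial and grey for Tarsl2. The blue points lie between 95.3 and 401 and the red points between 28.3 and 141, and Lars2 has by far the widest bar.

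The same order held within amino acids. For all 16 mitochondrial enzymes the cytosolic enzyme of the same amino acid was higher per length on average (Farsa for Fars2, and Eprs, which carries both the glutamate and the proline enzyme, for Ears2 and Pars2), and in 13 of the 16 it was higher in each of the 58 libraries. The ratio was smallest for arginine, where Rars was 1.09 ± 0.126 (SD, n = 58) times as high as Rars2, and 1.29 ± 0.159 for Tars over Tars2. It was largest for asparagine, where Nars was 14.5 ± 2.43 times as high as Nars2, followed by tryptophan with 7.61 ± 1.14 for Wars over Wars2. In Rars2, Tars2 and Lars2 the order was turned in at least 1 library, with lowest ratios of 0.847, 0.961 and 0.864.

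The fitted peaks of the mitochondrial enzymes lay mostly in the light phase in both genotypes, with small amplitudes. A cosine of 24 h was fitted within each genotype and tested with edgeR's quasi-likelihood test, and its acrophase (time of the peak) and relative amplitude (in percent of the mean) were read from a least-squares fit to the normalized counts. In controls 6 of 37 genes had a cosine with an adjusted p under 0.05, which is 16.2% of the members beside 12.2% of all genes tested: the mitochondrial Tars2, Iars2 and Wars2, the cytosolic Lars and Rars, and Tarsl2. In diabetic retinas 8 of 37 passed, 21.6% beside 14.3% of all genes: the mitochondrial Ears2, Tars2, Wars2, Rars2, Iars2 and Lars2, the cytosolic Rars, and Tarsl2. By class this was 3 of 16 mitochondrial and 2 of 20 cytosolic genes in controls, and 6 of 16 and 1 of 20 in diabetic retinas. All of these genes had their peak in the light except Lars2, which makes 6 of 37 in controls beside 6.27% of all genes, and 7 of 37 in diabetic retinas beside 7.33%. A test of the 6 time-point means, with no curve assumed, called 3 and 5 members, beside 9.06% and 10.2% of all genes. The acrophase lay in the light (ZT0 to ZT12) in 14 of 16 mitochondrial genes in controls and 15 of 16 in diabetic retinas, whether or not they passed, and in 12 and 13 of 20 cytosolic genes, beside 54.2% and 52.8% of all genes tested. These genes share their libraries and so are not independent of each other. Without ZT5, ZT17 or ZT21, 1, 0 and 3 members passed in controls. Without ZT5, ZT9, ZT17 or ZT21, 5, 4, 2 and 3 passed in diabetic retinas. Without the filter on low values 3 passed in controls (Iars2, Lars and Tars2) and 4 in diabetic retinas (Ears2, Lars2, Tars2 and Tarsl2). Without the 3 lens-rich libraries 4 members passed in controls (Iars2, Lars, Tars2 and Wars2) and the same 8 in diabetic retinas, and without the 3 libraries highest in rRNA-like reads, described with Lars2, 5 passed in each genotype, with Iars2, Tars2 and Wars2 in both.

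**Figure D2:**
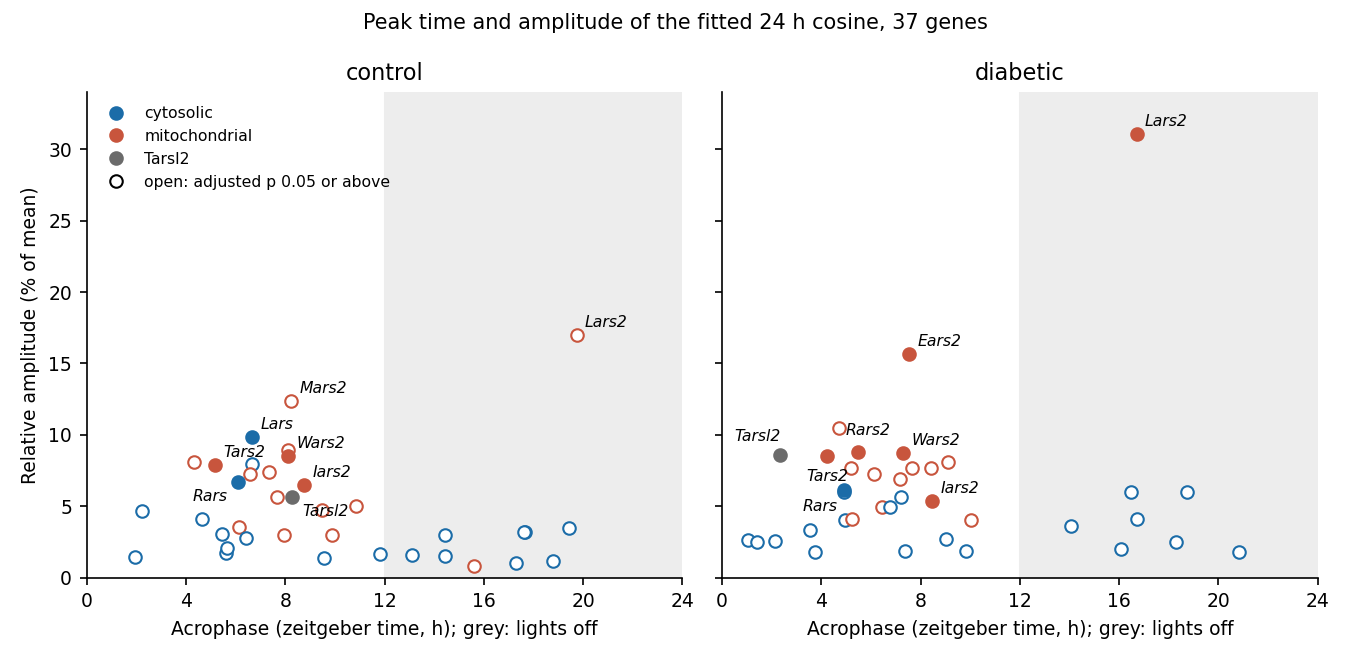
Acrophase (x axis, ZT in h, lights off in grey) against relative amplitude (y axis, percent of the mean) of the fitted cosine, 1 point per gene, in controls (left) and diabetic retinas (right), with filled points for an adjusted p under 0.05. The red mitochondrial points gather between ZT4.24 and ZT10.8 apart from Lars2 and, in controls, Aars2 (ZT15.6), whereas the blue cytosolic points spread over the day and have the lower median amplitude, with Lars, Cars and Rars above many red points in controls.

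Apart from Lars2, the mitochondrial acrophases ran from ZT4.33 (Yars2) to ZT15.6 (Aars2) with a median of ZT8.10 in controls, and from ZT4.24 (Tars2) to ZT10.0 (Mars2) with a median of ZT7.15 in diabetic retinas. The late value of Aars2 in controls, an alanyl-tRNA synthetase, had an error of 14.5 h and an amplitude of 0.798% ± 2.87 (SE), so it marks no time. The median relative amplitude of these 15 genes was 6.48% in controls and 7.67% in diabetic retinas, against 2.88% and 3.02% for the 20 cytosolic genes. On the log2 scale the median fitted amplitude was 0.10 and 0.12 for all 16 mitochondrial genes, 0.042 and 0.044 for the cytosolic genes, and 0.10 in both genotypes for all genes tested. Fitted amplitudes are never negative, and the median count was 309.8 for mitochondrial and 785 for cytosolic genes; the part of counting noise in this difference was not tested. At such amplitudes few acrophases of cytosolic genes are well placed. With the empirical JTK_CYCLE criteria (unadjusted p under 0.05 and a minimum fold between the highest and lowest library), 10 of 37 genes passed in controls beside 21.8% of all genes, and 13 of 37 in diabetic retinas beside 23.9%. By class these were 5 of 16 mitochondrial and 4 of 20 cytosolic genes in controls, and 10 of 16 and 2 of 20 in diabetic retinas.

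The mean level of the mitochondrial class was lower at ZT17 than at ZT5 in both genotypes. Averaged over the 15 mitochondrial genes without Lars2, mean log2 CPM in controls was 4.38 ± 0.0776 (SD, n = 6) at ZT5 and 4.24 ± 0.0235 (n = 5) at ZT17, and in diabetic retinas 4.36 ± 0.0230 (n = 5) at ZT5 and 4.15 ± 0.0603 (n = 4) at ZT17. For the 20 cytosolic genes it was 5.95 ± 0.0297 and 5.91 ± 0.0622 in controls, and 5.95 ± 0.0290 and 5.95 ± 0.0905 in diabetic retinas. The mitochondrial mean thus moved by more than the larger of its SDs at these times in both genotypes, and the cytosolic mean by less than the larger of its own. The gap between the classes (cytosolic minus mitochondrial mean log2 CPM, all 16 mitochondrial genes) ran from 1.52 ± 0.115 (n = 4) in diabetic retinas at ZT13 to 1.72 ± 0.105 (n = 4) in diabetic retinas at ZT17. At ZT17 its single libraries lay between 1.59 and 1.83 in diabetic retinas and between 1.56 and 1.74 in controls, so the genotypes overlapped. Without Lars2 it ran from 1.57 ± 0.0856 (n = 6) in controls at ZT5 to 1.80 ± 0.135 (n = 4) in diabetic retinas at ZT17, and was 1.58 ± 0.0974 in diabetic retinas at ZT13. No test was made on these class means.

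**Figure D3:**
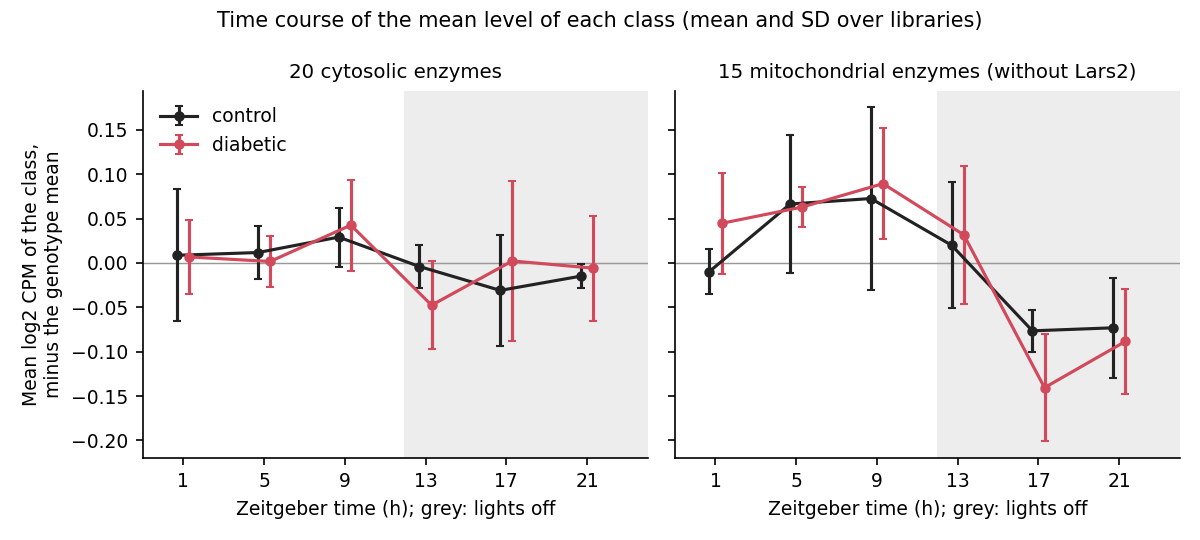
Mean log2 CPM of each class at each ZT (x axis, h, lights off in grey) minus the mean of its genotype, for 20 cytosolic genes (left) and 15 mitochondrial genes without Lars2 (right), with bars for the SD over 4 to 6 libraries. The mitochondrial curve is highest at ZT9 and lowest at ZT17 in both genotypes, while each cytosolic point lies within 0.05 of its mean.

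ZT17 against ZT5, the middle of the night against the middle of the day, was compared next. In controls 7 of 37 genes passed, all lower at ZT17, which is 18.9% of the members beside 15.1% of all genes in either direction and 7.66% lower. They were the mitochondrial Iars2, Tars2, Mars2, Wars2 and Rars2 and the cytosolic Lars and Rars. In diabetic retinas 4 of 37 passed, again all lower at ZT17, beside 7.36% of all genes in either direction and 3.73% lower: the mitochondrial Tars2, Rars2 and Ears2, and Tarsl2. The median difference of the 16 mitochondrial genes was -0.14 in controls and -0.19 in diabetic retinas on the log2 scale, that of the 20 cytosolic genes -0.01 in both, and that of all genes -0.03 and -0.01. Without the filter on low values 2 members passed in controls (Lars and Mars2) and 0 in diabetic retinas (adjusted p = 0.055 for Rars2, 0.076 for Tars2, 0.11 for Ears2 and 0.13 for Tarsl2). The counts also hang on single libraries: 3 members passed in controls without ZT5 replicate 2 or ZT17 replicate 3, and in diabetic retinas 7 passed without ZT17 replicate 1, 2 without ZT5 replicate 1 or 3 or ZT17 replicate 3, and 1 without ZT5 replicate 2 or ZT17 replicate 5. Without the 3 lens-rich libraries 5 passed in controls (Iars2, Lars, Mars2, Rars2 and Kars, the last of these higher at ZT17) and 3 in diabetic retinas, and without the 3 libraries highest in rRNA-like reads 3 (Iars2, Lars and Tars2) and 2 (Tars2 and Tarsl2). Every ZT17 library lay below every ZT5 library for 2 members in controls (Iars2 and Rars), beside 3.4% of all genes, and for 6 members in diabetic retinas (Cars2, Ears2, Rars2, Tars2, Tarsl2 and Wars2), beside 3.56%. In 0 members every ZT17 library lay above every ZT5 library, beside 4.28% of all genes in controls and 3.4% in diabetic retinas. Cars2, a cysteinyl-tRNA synthetase, did not pass the test, and its exons overlap those of Naxd on the other strand, whose ZT17 difference in diabetic retinas was also -0.20 ± 0.079 (adjusted p = 0.12).

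Markers of other cells differed between these times too. Of 5 pigment epithelium genes, 4 (Ttr, Rpe65, Rgr and Lrat) were higher at ZT17 in both genotypes and Best1 did not pass. The level summed over the 5 genes was 477.2 to 2128 at ZT5 and 1684 to 2921 at ZT17 in controls, and 338.0 to 498.2 at ZT5 and 967 to 2638 at ZT17 in diabetic retinas. Of 4 bipolar cell genes, 3 were higher at ZT17 in controls and 1 in diabetic retinas, and their summed levels did not overlap between the times (18641 to 20570 and 21813 to 24328 in controls, 16703 to 19655 and 20358 to 23098 in diabetic retinas). Of 4 Müller glia genes, 1 was higher in controls and 0 in diabetic retinas, with summed levels of 35777 to 39771 at ZT5 and 42984 to 45619 at ZT17 in controls, and 33207 to 43657 and 40664 to 47828 in diabetic retinas. The 3 rRNA-like transcripts, of which 0 passed, summed to 310902 to 374471 at ZT5 and 374233 to 606572 at ZT17 in controls, and to 314522 to 506135 and 365411 to 734031 in diabetic retinas. No marker was at 0 in all libraries, and the part of these cells and reads in the results was not tested.

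Tars2, which charges mitochondrial threonine tRNA, was called in all 4 of these tests. At ZT5 the 6 control libraries ran from 505 to 594 with a median of 551 normalized counts, and at ZT17 they held 528.4, 434.6, 507.3, 495.3 and 469.8. In diabetic retinas the 5 libraries at ZT5 held 530.2, 478.3, 486.6, 514.2 and 559.8, and the 4 at ZT17 held 465.5, 450.5, 434.0 and 390.9. The diabetic groups did not overlap, whereas 2 control libraries at ZT17 lay above the lowest one at ZT5. Tars2 fell by 0.19 ± 0.061 (SE) in controls and by 0.25 ± 0.068 in diabetic retinas on the log2 scale (edgeR, adjusted p = 0.025 and 0.013). Its cosine peaked at ZT5.15 ± 0.754 (SE) with an amplitude of 7.88% ± 1.49 in controls (adjusted p = 0.0056), and at ZT4.24 ± 0.968 with 8.56% ± 2.25 in diabetic retinas (adjusted p = 0.0033). Both cosine calls held with any 1 library left out, but ended without ZT17 (adjusted p = 0.11 and 0.34). The ZT17 difference lost its call in controls without ZT17 replicate 2 or ZT5 replicate 2 or 5 (highest adjusted p = 0.074), and in diabetic retinas without ZT17 replicate 5 or ZT5 replicate 5 (0.10). Its cytosolic partner Tars did not pass, with a ZT17 difference of -0.17 ± 0.068 in controls and -0.03 ± 0.075 in diabetic retinas (adjusted p = 0.080 and 0.89).

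Wars2 and Iars2, which charge tryptophan and isoleucine tRNA in mitochondria, had a cosine in both genotypes. Wars2 held between 195.6 and 267.2 normalized counts at ZT5 in controls (median 219) and 212.0, 189.7, 197.8, 204.2 and 189.6 at ZT17. In diabetic retinas it held 207.3, 217.4, 234.3, 222.2 and 216.2 at ZT5 and 186.8, 163.0, 197.6 and 191.7 at ZT17. The control groups overlapped and the diabetic groups did not. Wars2 peaked at ZT8.13 ± 0.972 with an amplitude of 8.52% ± 2.26 in controls and at ZT7.30 ± 1.02 with 8.75% ± 2.28 in diabetic retinas (adjusted p = 0.023 and 0.014). The control cosine was lost without ZT9 replicate 1 or 3 or ZT5 replicate 2 (highest adjusted p = 0.053), and the diabetic one held without any 1 library. With a whole time point left out, Wars2 lost the control cosine without ZT1, ZT5, ZT9, ZT17 or ZT21 (adjusted p = 0.0501 to 0.179). Wars2 lost the diabetic cosine without ZT9, ZT17 or ZT21 (0.13, 0.23 and 0.077). Its ZT17 difference was -0.22 ± 0.077 in controls, where the call (adjusted p = 0.048) was lost in 30 of the 58 fits without 1 library and reached 0.17 without ZT5 replicate 2, and -0.25 ± 0.085 in diabetic retinas (0.054). The cosine of its cytosolic partner Wars did not pass (adjusted p = 0.64 and 0.72).

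Iars2 held 929.9 to 1100 normalized counts at ZT5 in controls (median 984) and 885.2, 905.3, 895.8, 839.0 and 858.1 at ZT17, with no overlap. In diabetic retinas it held 975.2, 958.4, 963.4, 905.9 and 989.6 at ZT5 and 928.5, 850.1, 846.8 and 905.6 at ZT17, where 1 library at ZT17 lay above the lowest at ZT5. It fell by 0.19 ± 0.049 at ZT17 in controls (adjusted p = 0.0070), a call that held without any 1 library. In diabetic retinas the difference was -0.13 ± 0.054 (adjusted p = 0.15). It peaked at ZT8.76 ± 0.918 with an amplitude of 6.48% ± 1.64 in controls and at ZT8.45 ± 0.847 with 5.35% ± 1.14 in diabetic retinas (adjusted p = 0.0064 and 0.024), the latter with 0.051 without ZT21 replicate 4. The control cosine was lost without ZT5 (adjusted p = 0.063) or ZT17 (0.077), and the diabetic one without ZT5, ZT17 or ZT21 (0.080, 0.096 and 0.29). Iars2 shares 2034 bases of exon with Rab3gap2 on the other strand, and the strand setting of the counting is not given in the sources used here, and Rab3gap2 passed neither for ZT17 (0.0027 ± 0.047 in controls, adjusted p = 0.98, and -0.05 ± 0.052 in diabetic retinas, 0.66) nor for the cosine (0.92 and 0.47). The cytosolic Iars did not pass in either genotype (cosine adjusted p = 0.38 and 0.68).

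Ears2 and Rars2 passed the cosine test in diabetic retinas and not in controls, a difference that itself did not pass (given with the comparison of the genotypes). Ears2, which loads glutamate on both the glutamate and glutamine tRNAs of mitochondria, held 143.9, 152.2, 203.2, 163.8 and 143.5 normalized counts at ZT5 in diabetic retinas, 140.9, 126.1, 112.4 and 115.5 at ZT17, and 117.3, 120.6, 140.7, 106.5 and 119.6 at ZT21. In controls it held 127.2 to 195.6 at ZT5 (median 162), 141.9, 168.9, 168.1, 157.1 and 168.3 at ZT17, and 144.3, 131.2, 133.2 and 134.3 at ZT21. In diabetic retinas the libraries of ZT17 and ZT21 thus lay below those of ZT5, those of ZT13 (130.9, 171.2, 117.9 and 213.8) overlapped them. In controls the ZT17 libraries lay among those of ZT5. Ears2 had the largest amplitude of the called genes besides Lars2, 15.7% ± 4.07 with a peak at ZT7.54 ± 1.01 in diabetic retinas (adjusted p = 0.0023, held without any 1 library but 0.10 without ZT21), and 7.41% ± 3.20 at ZT7.36 ± 1.62 in controls (adjusted p = 0.30). It fell by 0.38 ± 0.12 at ZT17 in diabetic retinas (adjusted p = 0.049), a call lost in 41 of 58 fits without 1 library (up to 0.19, without ZT5 replicate 3), and its difference in controls was -0.02 ± 0.11 (0.90). Ears2 shares 89 bases of exon with Ubfd1 on the other strand, whose diabetic cosine had an adjusted p of 0.066. Eprs, the cytosolic enzyme for glutamate and proline, had amplitudes of 1.73% ± 0.973 and 1.86% ± 1.07 and passed in neither genotype (adjusted p = 0.47 and 0.46).

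Rars2 held 395.8, 422.1, 394.9, 374.7 and 436.0 normalized counts at ZT5 in diabetic retinas and 330.2, 287.6, 368.7 and 324.5 at ZT17, with no overlap. In controls it held 383.2 to 528.0 at ZT5 (median 423) and 317.4, 399.4, 311.9, 413.0 and 399.5 at ZT17, where the groups overlapped. It fell by 0.31 ± 0.088 in diabetic retinas (adjusted p = 0.019) and by 0.22 ± 0.080 in controls (0.048). The diabetic call was lost without ZT17 replicate 3 or 5 or ZT5 replicate 2 or 5 (highest adjusted p = 0.13, without ZT17 replicate 3), and the control call in 34 of 58 fits without 1 library (up to 0.23, without ZT17 replicate 3). Its cosine peaked at ZT5.49 ± 0.955 with 8.82% ± 2.24 in diabetic retinas (adjusted p = 0.020; 0.079 without ZT17 replicate 3, and also lost without ZT5 replicate 5) and at ZT7.66 ± 1.73 with 5.65% ± 2.63 in controls (0.22). The diabetic cosine call also ended without ZT5, ZT9, ZT17 or ZT21 (adjusted p = 0.074, 0.061, 0.34 and 0.059). Mars2, the methionyl enzyme, had the largest fall of all members in controls, by 0.41 ± 0.13 (adjusted p = 0.034). Its 6 libraries at ZT5 ran from 445.6 to 674.4 with a median of 530, and those at ZT17 held 292.5, 481.1, 344.7, 481.4 and 464.2, so that the groups overlapped. The call was lost without ZT17 replicate 1 or 3 or ZT5 replicate 1 or 2 (up to 0.15), and in diabetic retinas the difference was -0.09 ± 0.15 (adjusted p = 0.78). The cytosolic Mars differed by 0.22 ± 0.076 in diabetic retinas, towards higher values at ZT17, and did not pass (adjusted p = 0.066).

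**Figure D4:**
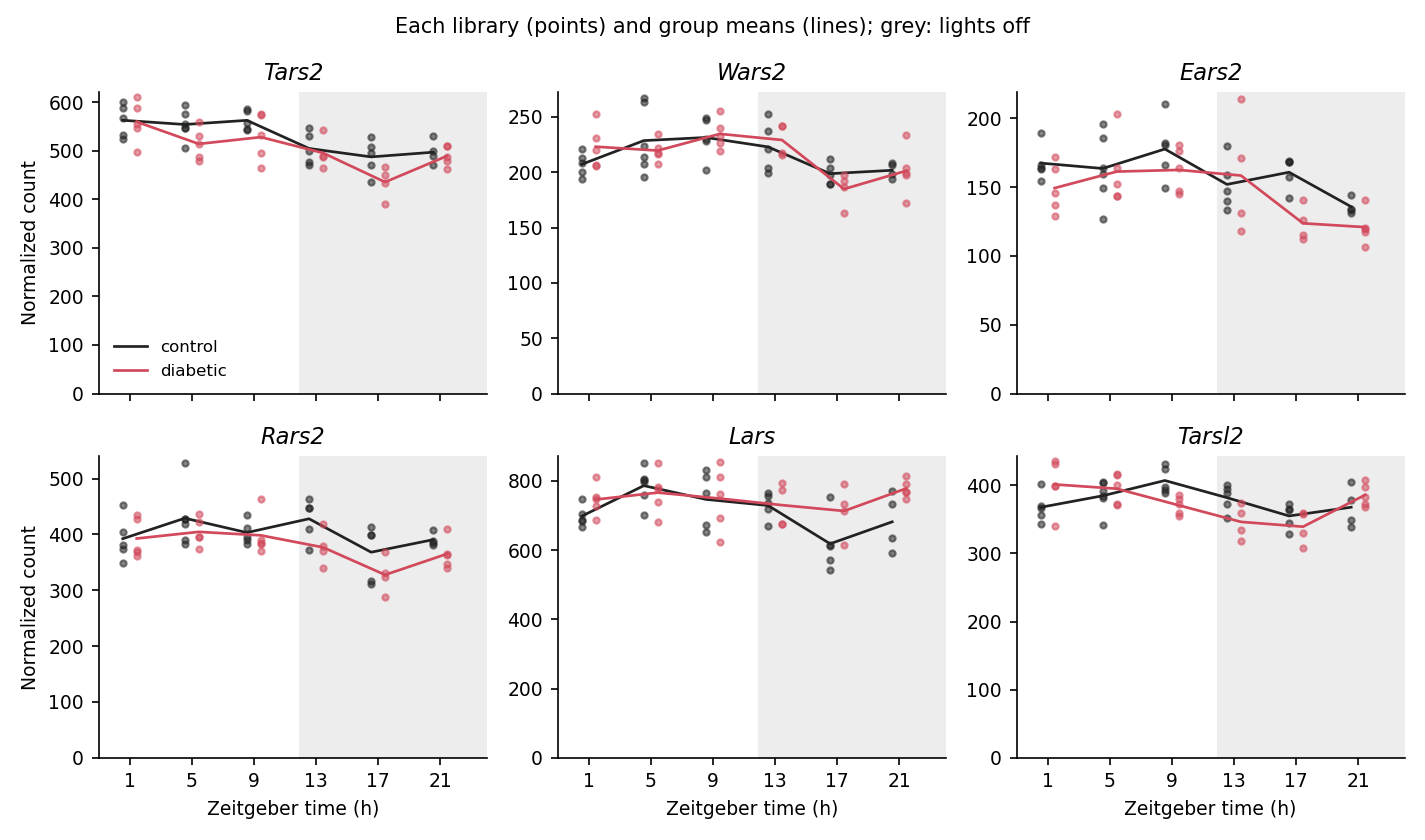
Normalized counts of 6 called genes in every library against ZT (x axis, h, lights off in grey), with points for libraries, lines for group means, black for control and red for diabetic retinas. Tars2, Wars2 and Rars2 are lowest at ZT17 in both genotypes, Lars lies between 542.5 and 753.2 at ZT17 in controls, and the mean of Tarsl2 is highest at ZT9 in controls and at ZT1 in diabetic retinas.

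Among the cytosolic enzymes, Lars and Rars were the only ones called in either time test. Lars, the leucyl-tRNA synthetase, also acts as a leucine sensor for mTORC1 signalling. It held 701.8 to 850.5 normalized counts at ZT5 in controls (median 799.8) and 613.8, 753.2, 542.5, 610.8 and 571.5 at ZT17. In diabetic retinas it held 739.5, 781.8, 850.3, 681.2 and 777.8 at ZT5 and 711.9, 733.4, 615.4 and 791.6 at ZT17. In controls 4 of the 5 libraries at ZT17 lay below every library at ZT5, whereas the diabetic groups overlapped widely. Lars fell by 0.35 ± 0.078 at ZT17 in controls (adjusted p = 0.0013), which held without any 1 library, and differed by -0.11 ± 0.085 in diabetic retinas, which did not pass. Its cosine had an amplitude of 9.86% ± 2.34 with a peak at ZT6.65 ± 0.908 in controls (adjusted p = 0.0041, also held without any 1 library) and 2.58% ± 2.27 in diabetic retinas, where it did not pass. The control cosine call ended without ZT5 (adjusted p = 0.14) or ZT17 (0.20). The difference between the cosines of both genotypes did not pass for Lars (edgeR, adjusted p = 1.00).

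Rars, the arginyl-tRNA synthetase, peaked at ZT6.10 ± 0.884 with an amplitude of 6.68% ± 1.52 in controls and at ZT4.93 ± 1.09 with 6.14% ± 1.79 in diabetic retinas (adjusted p = 0.0095 and 0.026). The control call held without any 1 library, and the diabetic one was lost without ZT5 replicate 1 or 2 or ZT17 replicate 4 (highest 0.058). With a whole time point left out, Rars lost the control call without ZT5, ZT17 or ZT21 (adjusted p = 0.155, 0.174 and 0.070). It lost the diabetic call without any 1 of the 6 time points (0.064 to 0.115). At ZT17 it held 473.8, 490.7, 463.5, 462.0 and 441.1 in controls, all below the 499.9 to 590.9 (median 520) of ZT5, a fall of 0.19 ± 0.059 (adjusted p = 0.020) that was lost without ZT17 replicate 3 or ZT5 replicate 4 (0.064). With a correction for GC content and length, the Rars calls ended (adjusted p = 0.36 and 0.22 for the cosines), as did the control cosines of Wars2 (0.075) and Tarsl2 (0.23) and the control ZT17 calls of Mars2, Rars2 and Wars2 (0.29, 0.55 and 0.17). Cars (cysteine) had the third smallest p of cytosolic genes in controls, with 7.94% ± 2.02 at ZT6.66 ± 0.975 (adjusted p = 0.053). In diabetic retinas Farsa, the alpha subunit of the phenylalanyl enzyme, and Mars came next after Rars without passing, with 6.01% ± 2.09 at ZT4.93 ± 1.295 and 5.98% ± 2.61 at ZT18.8 ± 1.69 (adjusted p = 0.096 and 0.14).

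Gars and Kars, which serve both compartments from 1 gene, passed no time test with all libraries in the fit. Gars had a mean of 1116 ± 104 (SD, n = 5) normalized counts at ZT17 and 1209 ± 25.8 (n = 6) at ZT5 in controls, and 1122 ± 167 (n = 4) and 1150 ± 69.2 (n = 5) in diabetic retinas. Its cosine did not pass (adjusted p = 0.46 and 0.77), nor did that of Kars (0.61 and 0.88), whose acrophases of ZT19.4 and ZT20.8 fell in the night with amplitudes of 3.48% ± 2.44 and 1.82% ± 2.18. Of the 8 enzymes of the multi-synthetase complex, 2 (Lars and Rars) had a cosine in controls and 1 (Rars) in diabetic retinas, beside 12.2% and 14.3% of all genes.

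Tarsl2 had the smallest p of all members in the diabetic cosine test and in the test of the cosines between genotypes. In controls its group means were 368 ± 22.0, 385 ± 23.1, 407 ± 19.3, 382 ± 19.5, 355 ± 17.9 and 368 ± 30.2 (SD) normalized counts at ZT1, ZT5, ZT9, ZT13, ZT17 and ZT21. In diabetic retinas they were 401 ± 38.0, 395 ± 21.9, 371 ± 12.9, 346 ± 24.98, 339 ± 24.6 and 386 ± 17.2. At ZT9 the control libraries held 431.3, 389.2, 424.1, 393.2 and 396.9 and the diabetic ones 385.8, 359.8, 355.1, 379.1 and 372.9. The test between the genotypes at ZT9 called 0 members. Its acrophase was ZT8.26 ± 1.01 in controls with an amplitude of 5.67% ± 1.56, and ZT2.36 ± 0.741 in diabetic retinas with 8.59% ± 1.74, a difference of -5.90 h ± 1.249 (SE). The diabetic cosine (adjusted p = 0.0013) held without any 1 library and without any 1 time point, whereas the control cosine (0.048) was lost in 40 of 58 fits without 1 library (up to 0.12, without ZT9 replicate 1) and with DESeq2 (0.066). The difference between the cosines of both genotypes did not pass after adjustment over 19120 genes (edgeR, adjusted p = 0.74). At ZT17 Tarsl2 fell by 0.23 ± 0.065 against ZT5 in diabetic retinas (adjusted p = 0.020), lost without ZT17 replicate 4 or ZT5 replicate 1, 2 or 3 (highest 0.091). It shares 120 bases of exon with Tm2d3 on the same strand, and Tm2d3 did not pass in any of these tests (cosine adjusted p = 0.69 and 0.83).

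The highest counts of Lars2, the leucyl enzyme of mitochondria, were found in libraries with many rRNA-like reads. In the cosine test Lars2 was the only called gene with its peak at night, at ZT16.7 ± 1.47 with an amplitude of 31.1% ± 12.3 in diabetic retinas (adjusted p = 0.039). By the empirical JTK_CYCLE criteria Nars, with a fitted peak at ZT16.7 ± 1.52, was also called there. Counted at every base, so that neighbouring windows overlap, the annotated transcripts of Lars2 share 28 windows of 25 bases with Gm15564, an rRNA-like gene. They share 3 windows of 50 bases with it (0.027% of those of Lars2). No window of 25 bases is shared with the far more abundant Gm42418 and Gm26917. At ZT17 the 5 control libraries held 363.5, 353.8, 1298, 331.7 and 391.2 normalized counts and the 4 diabetic ones 314.9, 1447, 533.9 and 498.1. A single library in each group stood far above the others. Over all 58 libraries 7 lay above 700 (a limit set after the values were seen), from 724.3 to 1447, while the other 51 lay between 309.7 and 565.2. All 7 were above the median of each of Gm42418, Gm26917 and Gm15564, 3 rRNA-like transcripts that remain after the depletion of ribosomal RNA: Gm42418 held 72287 to 175362 in them beside a median of 56700. The reverse did not hold: diabetic ZT9 replicate 4 had the lowest count of Lars2 (309.7) with 414856 counts of Gm26917, and control ZT17 replicate 5 had 391.2 with 77573 of Gm42418. Without the 3 libraries highest in these reads (control ZT17 replicate 3, diabetic ZT13 replicate 5 and diabetic ZT17 replicate 3) the diabetic cosine of Lars2 did not pass (adjusted p = 0.36), and without diabetic ZT17 replicate 3 alone it reached 0.39. Leaving out the single libraries diabetic ZT13 replicate 5, ZT21 replicate 3, ZT1 replicate 4 or ZT5 replicate 1, 2 or 5 also ended the call. The part of rRNA-like reads in the counts of Lars2 was not otherwise tested, and class means are given for the other 15 mitochondrial genes as well.

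**Figure D5:**
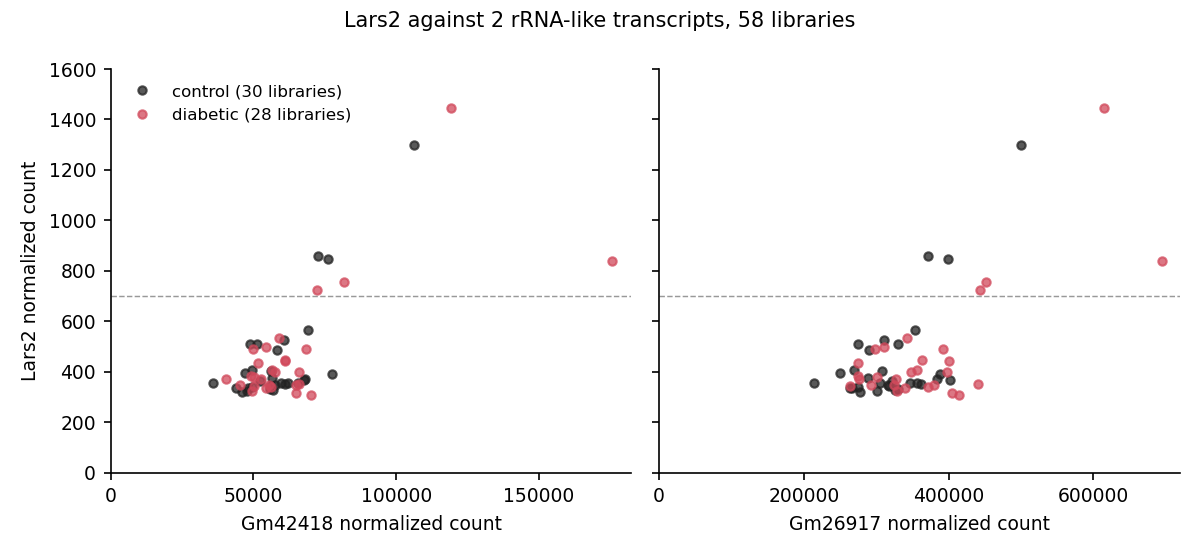
Lars2 (y axis, normalized counts) against Gm42418 (left) and Gm26917 (right, both x axes in normalized counts), 1 point per library, black for control and red for diabetic retinas. The 7 libraries above the dashed line at 700 all lie at or above 72287 for Gm42418 and 371265 for Gm26917, and the highest reaches 1447 for Lars2.

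No member passed the test between diabetic and control retinas. Over all time points 0 of 37 genes passed (edgeR, adjusted p under 0.05) beside 2.99% of all genes, with 9 members at an unadjusted p under 0.05 beside 15.5% of all genes, and 0 passed with DESeq2. The median difference (diabetic minus control) was -0.01 for mitochondrial and 0.02 for cytosolic genes on the log2 scale, and the single genes ran from -0.14 ± 0.059 (SE) for Ears2 to 0.12 ± 0.039 for Cars. Cars had the smallest p, with a mean of 668 normalized counts in 30 control libraries, and missed the threshold with an adjusted p of 0.083. With the mean of the 6 differences at single time points in place of all libraries as 1 group each, Cars passed (adjusted p = 0.037) beside 4.64% of all genes, and it also passed without diabetic ZT17 replicate 1 or without ZT5. The call on the mean of the 6 differences was lost without the 3 lens-rich libraries, and without the 3 libraries highest in rRNA-like reads Ears2 passed in place of Cars. At single time points 0 members passed, beside 0.0105%, 0.0209%, 0.00523%, 0.0%, 0.167% and 0.0% of all genes at ZT1, ZT5, ZT9, ZT13, ZT17 and ZT21. Unadjusted p-values under 0.05 were found for 2, 1, 1, 2, 8 and 2 members in this order, beside 5.5%, 6.15%, 4.49%, 4.46%, 8.82% and 4.67% of all genes.

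ZT17 thus held the most members at an unadjusted p under 0.05, as it held the highest share of all genes. Of these 8, the mitochondrial Ears2 (-0.38 ± 0.12), Fars2 (-0.26 ± 0.094) and Tars2 (-0.16 ± 0.067) were lower in diabetic retinas, and the cytosolic Cars (0.26 ± 0.094), Lars (0.20 ± 0.085), Tars (0.16 ± 0.074), Mars (0.15 ± 0.075) and Nars (0.11 ± 0.056) were higher. None held after adjustment (smallest adjusted p = 0.21, for Ears2). Over whole classes the direction was mixed: 11 of 16 mitochondrial genes had a negative and 5 a positive difference (median -0.09, up to 0.34), and 14 of 20 cytosolic genes a positive and 6 a negative one (median 0.02). At ZT17 the values of Ears2 were 140.9, 126.1, 112.4 and 115.5 in diabetic and 141.9, 168.9, 168.1, 157.1 and 168.3 in control retinas. Cars held 584.6, 890.1, 634.5 and 855.8 in diabetic and 700.1, 585.9, 585.5, 622.8 and 587.2 in control retinas, so that its groups overlapped.

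Whether the 24 h cosine differed between the genotypes was tested gene by gene, and 0 of 37 members passed, beside 0.0% of all genes. At an unadjusted p under 0.05 there were 3 members (Tarsl2, Lars and Cars), beside 3.44% of all genes. Of the 15 mitochondrial genes without Lars2, 12 had an earlier and 3 a later fitted acrophase in diabetic retinas (median change -0.91 h), as had 11 and 9 of the 20 cytosolic genes (-1.14 h). The change was larger than 1 SE in only 2 of these 15, Cars2 (-3.21 h ± 2.25) and Rars2 (-2.16 h ± 1.98), and none of the 15 passed the test.

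Genes that work beside the synthetases were counted in the same way, from lists made with earlier results of these data in view, and the counts describe these lists only. Of all genes tested, 12.2% had a cosine in controls and 14.3% in diabetic retinas, 15.1% and 7.36% differed between ZT17 and ZT5, and 2.99% differed between the genotypes over all time points. Of 4 genes of mitochondrial glutamine amidation and formylation, 2 (Qrsl1 and Gatb, subunits of the amidotransferase that follows Ears2) had a cosine in both genotypes and were lower at ZT17 in both. Gatc, another subunit of this enzyme, had its fitted peaks at night, at ZT20.4 ± 1.55 (SE) in controls and ZT21.3 ± 2.12 in diabetic retinas. Qrsl1 fell by 0.36 ± 0.091 in controls and by 0.52 ± 0.0997 in diabetic retinas (adjusted p = 0.0046 and 0.00040), and Gatb by 0.24 ± 0.086 and 0.29 ± 0.095 (0.048 and 0.046). Of 9 mitochondrial translation factors, 0 had a cosine in controls and 2 in diabetic retinas, the elongation factors Gfm1 and Tsfm, which fell by 0.18 ± 0.057 and 0.35 ± 0.11 at ZT17 there (adjusted p = 0.033 for both). The fitted peaks of the others were mixed. Those of Mtif3 lay at night in both genotypes (ZT22.6 ± 2.23 and ZT18.6 ± 1.82), as did that of Tufm in controls (ZT20.1 ± 3.13). Those of Gfm2 and Mtif2 lay in the light in both. Elac2, which trims the ends of nuclear and mitochondrial tRNA precursors, was the 1 of 6 tRNA processing and export genes with a cosine in both genotypes, and fell by 0.35 ± 0.074 at ZT17 in diabetic retinas (adjusted p = 0.0012). In controls Trnt1, which adds the CCA end to tRNAs, was the 1 of these 6 that was lower at ZT17 (-0.41, adjusted p = 0.040).

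Among cytosolic elongation factors and stress response genes, most of those that passed were higher at ZT17. Of 6 cytosolic elongation factors, 3 were higher at ZT17 in controls, Eef1a1 (0.27 ± 0.085), Eef2 (0.28 ± 0.089) and Eef1a2 (0.33 ± 0.11; adjusted p = 0.025, 0.025 and 0.038), and 0 passed in diabetic retinas, where 2 had an unadjusted p under 0.05. A cosine was called for 2 of these 6 in controls and 1 in diabetic retinas, and Eef1g and Eef1a1 were lower in diabetic retinas over all time points (-0.12 and -0.16, adjusted p = 0.017 and 0.019). Of 26 genes of the integrated stress response, the pathway through which ATF4 acts, 8 passed at ZT17 in controls, 7 of them higher, among them Ddit4, Ddit3, Ppp1r15a and Psat1 (0.37 ± 0.094, 0.36 ± 0.092, 0.49 ± 0.13 and 0.24 ± 0.073), while Mthfd2 fell by 0.37. A cosine was called for 5 of the 26 in controls and 2 in diabetic retinas. In diabetic retinas Ppp1r15a alone passed, with a rise of 0.47 ± 0.14 (adjusted p = 0.028). Aars, Gars and Tars, which held a CARE match among the 13 cytosolic promoters searched, passed in neither genotype. The promoters of the other cytosolic enzymes were not searched, and the part of ATF4 in the levels of the synthetases was not tested. No gene passed any of these time tests among the 3 other parts of the multi-synthetase complex and the 6 editing and deacylating enzymes, whereas 1 of 4 selenocysteine genes, Sepsecs, fell by 0.33 ± 0.11 at ZT17 in controls (adjusted p = 0.038).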

How the data were processed

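The deposited table holds raw read counts per gene for the 58 libraries. As the authors state, STAR 2.7.4a aligned the reads to GRCm38.p5 with Gencode M15 and HTSeq-count 0.11.1 counted them, and the strand setting is not given in the sources used here. Whether reads that map to several places were counted is not given either, which bears on Lars2.

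Genes with a median of more than 4 counts, normalized by DESeq2 size factors, were tested (19120). Differences were tested with edgeR 4.0.16 (TMM, quasi-likelihood F-test, Benjamini-Hochberg adjustment over all tested genes, two-sided, threshold 0.05) in 1 fit with a group for each genotype and time point, and cosines of a 24 h period in 1 fit with a mean, a cosine and a sine per genotype. Diabetic and control retinas over all times were compared as 2 groups. Log2 fold changes are given ± SE. Relative amplitude and acrophase are least-squares estimates on normalized counts. Empirical JTK_CYCLE was rewritten with 6 phases, 5 widths and 200000 null series. The tests were checked on simulated counts. Alternatives were DESeq2 1.42.0 as tool and as size factors, other filters, a correction for GC content and length, a replicate block, and leaving out each library or time point. R 4.3.3 and Python 3.11.15 were used.

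Members and gene lists were chosen with earlier results of these data known. Named in full were each called member (up to 8 per comparison), the 3 cytosolic and 3 mitochondrial genes with the smallest p in each cosine test, Gars, Kars, Tarsl2, Lars2 and cytosolic partners, with up to 4 genes per other list. Of 113 pairs of replicate libraries none agreed within sampling noise (chi-square per degree of freedom at least 1.95).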

Additional observations from a re-analysis of the deposited data

Results flagged for a closer look

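Single libraries far from the others of their group were sought among the 444 groups of 4 to 6 libraries (37 genes, 12 groups each) with Dixon's criterion, which chance alone meets in about 1 in 20 groups. It was met in 25 groups (5.63%), in 16 by a high and in 9 by a low library.

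Lars2 made up 6 of these, all high, in control ZT17 replicate 3 (1297.6 normalized counts, next 391.2), control ZT21 replicate 3 (847.6), diabetic ZT1 replicate 1 (724.3), diabetic ZT5 replicate 3 (398.1), diabetic ZT13 replicate 5 (839.6) and diabetic ZT21 replicate 3 (757.2). All but diabetic ZT5 replicate 3 are among the 7 libraries with over 700 counts and rRNA-like reads above their median.

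The control library at ZT1 replicate 4 was low for 3 genes, Farsb (617.7), Hars2 (417.7) and Iars2 (764.4, next 883.6). The other low values were Aars2 in diabetic ZT1 replicate 2 (375.3), Hars in diabetic ZT13 replicate 5 (431.2), Kars in diabetic ZT21 replicate 2 (714.4), Nars in control ZT21 replicate 1 (1710.3), Tarsl2 in control ZT5 replicate 2 (341.6) and Vars2 in diabetic ZT9 replicate 3 (327.4).

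High values were those of Aars2 in control ZT9 replicate 4 (560.2, next 424.5), Gars in diabetic ZT9 replicate 3 (1395.7), Mars2 in diabetic ZT21 replicate 2 (631.9), Pars2 and Yars in control ZT5 replicate 1 (147.9 and 1008.0) and Rars in control ZT13 replicate 3 (554.6). Rars2 was high in control ZT5 replicate 6 (528.0) and diabetic ZT9 replicate 2 (463.5), Wars in diabetic ZT13 replicate 1 (977.7) and Yars2 in control ZT17 replicate 2 (152.9). The gap between the cytosolic and mitochondrial class means met the criterion in 0 groups, and 0 members differed between the genotypes in their cosine after adjustment.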

How the results depend on the processing

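Counts of members called were 0 over all time points between genotypes, 6 and 8 for the cosines in controls and diabetic retinas, and 7 and 4 for ZT17 against ZT5. With 1 library left out they ran from 0 to 1, 4 to 7, 6 to 11, 3 to 8 and 1 to 7, and the genotype tests at single time points and of the cosines gave 0 throughout. With the mean of the 6 time-point differences, 1 member (Cars) passed between genotypes. Without the low-count filter the 4 time counts were 3, 4, 2 and 0. Without ZT5, ZT17 or ZT21 the control cosine count was 1, 0 and 3. Without ZT5, ZT9, ZT17 or ZT21 the diabetic count was 5, 4, 2 and 3. A test of the 6 time-point means called 3 and 5, and empirical JTK_CYCLE 10 and 13. Without the 3 libraries highest in rRNA-like reads (an alternative chosen after seeing the data, as was leaving out 3 lens-rich libraries), the diabetic cosine count was 5 and the ZT17 counts were 3 and 2. With GC and length correction 6 members had a control cosine, of which 3 (Lars, Tars2 and Iars2) were also called without it. The cause of these moves was not tested.

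The labels name no shared litter, batch or day for a replicate number, and the libraries were not taken as paired. Over 26 pairs of the same number and time point the correlation of deviations ran from -0.482 to 0.813, with 20 above 0.1, and 25 of 58 libraries correlated best with their own number, a hint from the data and not from the design. A replicate block gave 7 and 12 cosine calls and 8 and 4 at ZT17, and 0 between genotypes. It ended the calls of Lars2 (diabetic cosine, adjusted p = 0.067) and Rars2 (control ZT17, 0.052). The block with GC and length correction gave 8 and 13, and 7 and 7.

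With the median over genes in place of the mean, the gap between the classes was 1.48, 1.36, 1.41, 1.38, 1.49 and 1.43 log2 units in controls at ZT1, ZT5, ZT9, ZT13, ZT17 and ZT21, and 1.42, 1.44, 1.41, 1.40 and 1.53 in diabetic retinas at all but ZT17, where it moved by less than 1 SD. Leaving out 1 library, the gap taken with the mean ran from 1.49 to 1.77 over all groups. Of the members called at ZT17, 7 in controls and 4 in diabetic retinas, none changed direction under any alternative run; genes that are no members were not followed. Precision was limited by 4 to 6 libraries per group, with mean normalized counts of 114 to 2684 per gene.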
